A study of Oryza sativa with 8 samples.

Results

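Pathogenesis-related (PR) protein genes and NH1, the rice homologue of the defence regulator NPR1, were followed in rice leaves. The 7 genes were taken by their locus IDs, and all 7 were found among the 36850 rows of the deposited count table. They are NH1 (Os01g0194300), PR1a (Os07g0129200), PR1b (Os01g0382000), PR10a (Os12g0555000), PBZ1 (Os12g0555500) and the chitinase genes Os06g0726100 and Os06g0726200. The names come from the list that defined the genes, since the count table pairs no locus with a name. PR10a may be used elsewhere for another PR10 locus, and here it means Os12g0555000 only. By their IDs the genes lie on chromosomes 1, 6, 7 and 12.

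Leaf RNA was sequenced from mEmBP-OE-4, a line overexpressing mEmBP-1a (a maize bZIP transcription factor) in rice, and from wild type (WT), with 4 libraries of each. All plants were grown in the field, and the leaf below the topmost one was taken at about 10:00 a.m. at early heading. The overexpressing group is 1 transgenic line. No source used here gives the promoter of the transgene, the cultivar or whether a library holds 1 plant or several. The p-values therefore measure only how far these libraries spread, part of which may be technical.

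NPR1-type proteins are coactivators that respond to salicylic acid and work with TGA and WRKY transcription factors to switch on defence genes. PR proteins are made by plants under attack: PR1 proteins are secreted and widely used as markers of salicylic acid signalling, PR10 proteins are small intracellular proteins, and chitinases cut the chitin of fungal cell walls. PBZ1 is a PR10 gene named after probenazole, a compound that protects rice against blast and induces it.

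The libraries held 35627524 to 50800180 counts. Levels are given as CPM (counts scaled to a common library size) with library sizes adjusted by TMM, the trimmed mean of M-values, and because gene lengths were not used, levels are compared between libraries and not between genes. The share of loci listed as leaf markers was 4.73% to 6.31% across mEmBP-OE-4 libraries and 5.11% to 5.79% across WT libraries. That sum is mostly Os11g0707000 (83.2% of the counts), whose groups overlapped. Each of the other 5 leaf loci was higher in every mEmBP-OE-4 library than in any WT library. Of the 20690 genes tested below, 3887 showed that pattern. The 4 loci listed for floral organs took 0.000164% to 0.000276% in mEmBP-OE-4 and 0.000264% to 0.000458% in WT, of which Os03g0215400 gave 90.8%. Os02g0682200 from that list had 7, 3, 12 and 10 counts in mEmBP-OE-4 replicates 1 to 4 and 0, 0, 1 and 0 counts in WT replicates 1 to 4, and Os01g0201700 had 15, 6, 8 and 10 counts in mEmBP-OE-4 and 5, 3, 2 and 1 counts in WT, so both were higher in mEmBP-OE-4 with no overlap. The seed storage locus held 0 to 3 counts per mEmBP-OE-4 library and 0 to 4 counts per WT library. The part of other organs in the values below was not tested.

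NH1 and PR1a transcripts were lower in mEmBP-OE-4 than in WT, and no tested gene of the set rose. Of the 6 genes that passed the filter on low counts, 2 fell (edgeR quasi-likelihood F test, Benjamini-Hochberg adjusted p at most 0.05), where 19.1% of the 20690 tested genes were called lower. With the replicate number as a block, 4 of the 6 fell (NH1, PR1a, PR1b and PR10a), where 24.1% of tested genes were called lower. PR1a and PR1b passed the filter through their WT libraries, so they could be tested only because of their level there. Later counts of members called under this filter carry the same limit. Without a block, NH1, PR1a, PR1b and PR10a fell once mEmBP-OE-4 replicate 1 was left out, where 20.5% of tested genes were called lower. That library was the highest of its group for all 6 genes, so leaving it out lowers the mEmBP-OE-4 mean of each. When any one of the other 7 libraries was left out, PR1a lost its call and NH1 alone fell. Over the fits without 1 library, 14.9% to 20.5% of tested genes were called lower. On TMM scaling, PBZ1 and the chitinase gene Os06g0726200 passed the test neither with nor without the block. The median log2 fold change of the 6 was -1.25, against 0.0015 for all tested genes. This median depends on the filter. It was -1.16 with no filter, which brings in Os06g0726100. With a filter of 5 CPM in 4 libraries, which drops PR1a and PR1b, it was -0.88. In RNA from whole leaves, fewer cells that express a gene and less RNA per cell cannot be told apart.

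**Figure D1:**
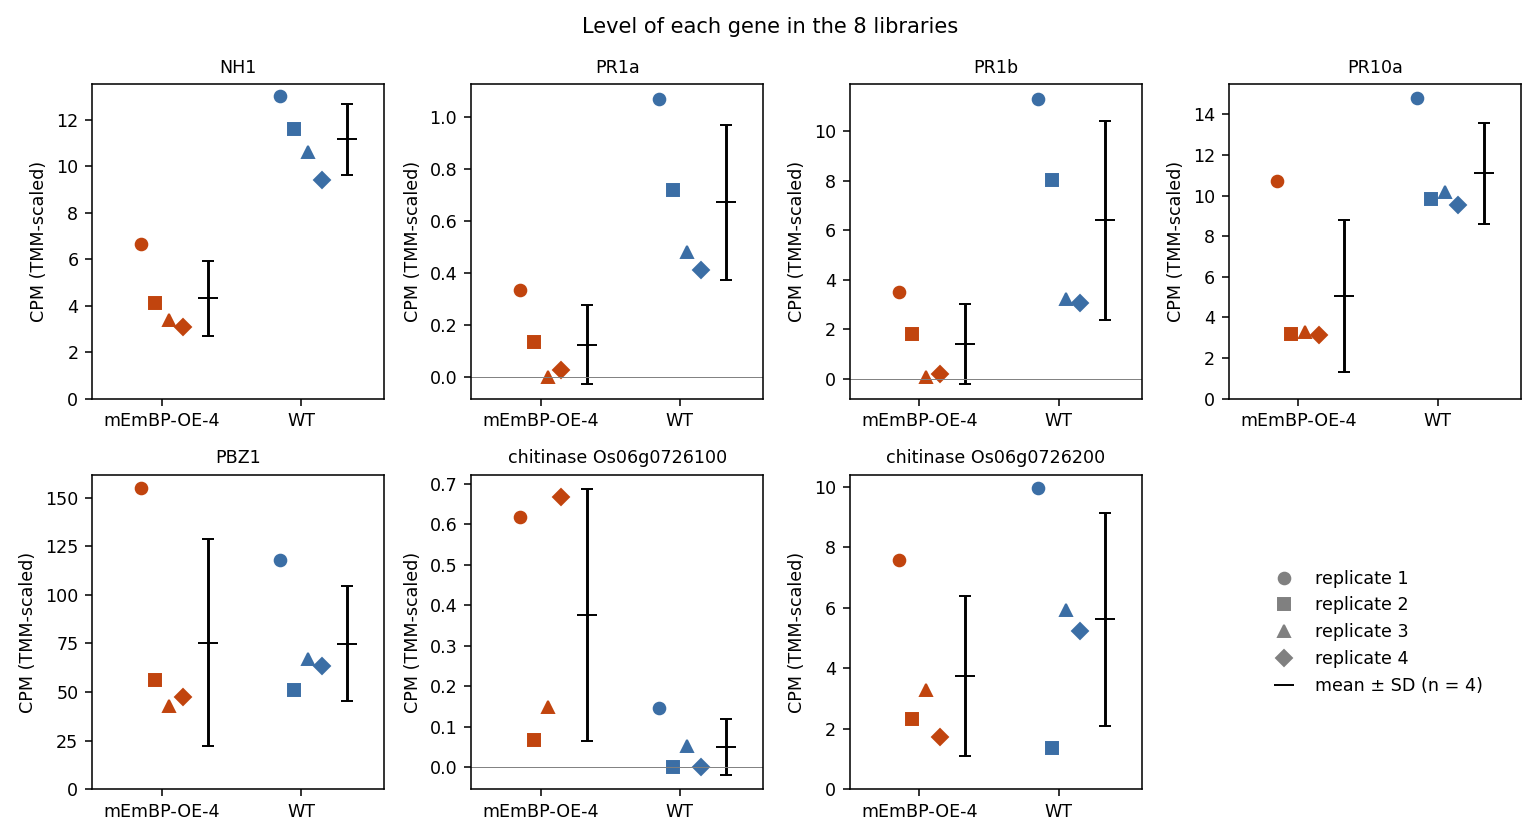
CPM (TMM-scaled, linear axis) of each gene in the 4 mEmBP-OE-4 libraries (left) and the 4 WT libraries (right); each symbol is a library, its shape gives the replicate number, and the black bars are mean ± SD (n = 4). NH1 and PR1a do not overlap between the groups, and replicate 1 is the highest library of both groups for every gene except Os06g0726100 in mEmBP-OE-4.

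NH1, the regulator of the set, was measured at 6.65, 4.13, 3.40 and 3.10 CPM in mEmBP-OE-4 replicates 1 to 4, against 13.0, 11.6, 10.6 and 9.41 CPM in WT replicates 1 to 4. Every mEmBP-OE-4 library lay below every WT library, a pattern that 19.7% of tested genes showed. NH1 averaged 4.32 ± 1.61 CPM in mEmBP-OE-4 leaves and 11.2 ± 1.51 CPM in WT leaves (SD, n = 4 each). This was 2.58-fold lower in mEmBP-OE-4 (log2 fold change -1.37, SE 0.24, adjusted p = 0.00217 by edgeR). The 95% interval of the fold change ran from 0.266 to 0.564. The fall held in every alternative setting, with adjusted p between 1.56e-06 and 0.0088 (edgeR, limma-voom or DESeq2). Between libraries of the same number NH1 was 1.95-fold, 2.81-fold, 3.12-fold and 3.03-fold lower in mEmBP-OE-4 for replicates 1 to 4.

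PR1a, which encodes a secreted PR1 protein, was close to the floor of detection. It had 13, 4, 0 and 1 counts in mEmBP-OE-4 replicates 1 to 4 and 65, 34, 19 and 19 counts in WT replicates 1 to 4, so the groups did not overlap. In CPM this was 0.335, 0.133, 0 and 0.0257 in mEmBP-OE-4 and 1.07, 0.719, 0.482 and 0.413 in WT. The 0 counts in mEmBP-OE-4 replicate 3 allow a level of up to 0.0738 CPM, the limit at 3 counts, which covers counting error only. The log2 fold change was -2.44 (SE 0.79, adjusted p = 0.0346 by edgeR). PR1a passed the filter through its WT libraries, so it could be tested only because of its level there. The call was lost without mEmBP-OE-4 replicate 2, 3 or 4 or any of the 4 WT replicates (adjusted p = 0.0516 to 0.0772, edgeR), and the log2 fold change was -3.77 without mEmBP-OE-4 replicate 1 (adjusted p = 0.00635, edgeR).

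PR1b, the other gene for a secreted PR1 protein, had the widest spread within mEmBP-OE-4 among the members with counts in all 8 libraries. It stood at 3.51, 1.80, 0.0738 and 0.180 CPM in mEmBP-OE-4 replicates 1 to 4 and at 11.3, 8.03, 3.20 and 3.04 CPM in WT replicates 1 to 4. Replicates 3 and 4 were the low libraries of both groups, and only mEmBP-OE-4 replicate 1 reached into the range of WT. Within mEmBP-OE-4 the highest library exceeded the lowest 47.5-fold, and within WT 3.72-fold. The log2 fold change of -2.21 (SE 0.92) did not pass the test (adjusted p = 0.0824, edgeR without a block). With the replicate block it was -2.76 (SE 0.47, adjusted p = 0.00187, edgeR), without mEmBP-OE-4 replicate 1 it was -3.32 (adjusted p = 0.0215, edgeR), and over all settings the adjusted p ranged from 8.02e-05 to 0.166. In all 4 same-numbered pairs PR1b was lower in mEmBP-OE-4, by 3.23-fold, 4.46-fold, 43.3-fold and 16.9-fold for replicates 1 to 4. The mEmBP-OE-4 libraries of the last pairs held 3 and 7 counts, so those folds are imprecise. Like PR1a, PR1b passed the filter through its WT libraries, so it could be tested only because of its level there. The calls with the block and without mEmBP-OE-4 replicate 1 carry the same limit.

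**Figure D2:**
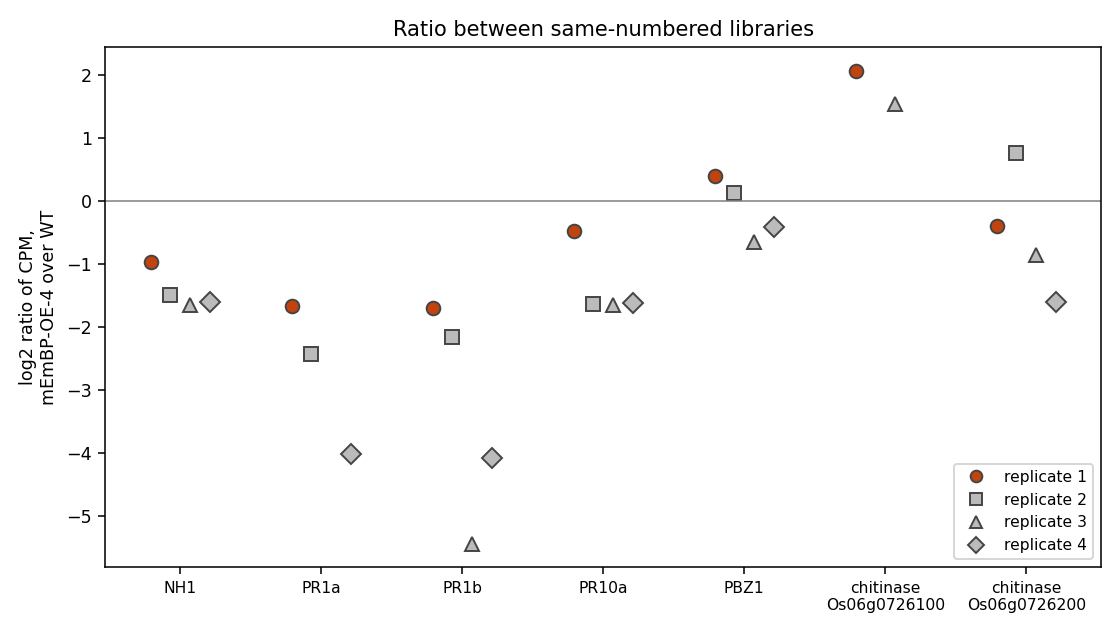
Log2 ratio of CPM in mEmBP-OE-4 over WT between libraries of the same replicate number, for each gene; symbols give the number and replicate 1 is coloured. Pairs with 0 counts in a library are left out (replicate 3 of PR1a, replicates 2 and 4 of Os06g0726100). NH1, PR1a, PR1b and PR10a lie below 0 in every pair drawn, while PBZ1 and Os06g0726200 lie on both sides.

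PR10a, an intracellular PR10 gene, was at 10.7, 3.17, 3.27 and 3.13 CPM in mEmBP-OE-4 replicates 1 to 4 and at 14.8, 9.83, 10.2 and 9.56 CPM in WT replicates 1 to 4. Apart from mEmBP-OE-4 replicate 1, which lay among the WT values, the mEmBP-OE-4 libraries were close together and low. PR10a averaged 5.06 ± 3.74 CPM in mEmBP-OE-4 leaves and 11.1 ± 2.48 CPM in WT leaves (SD, n = 4 each). The log2 fold change of -1.13 (SE 0.41) missed the threshold (adjusted p = 0.051, edgeR). It was -1.32 (SE 0.22) with the replicate block (adjusted p = 0.0016, edgeR) and -1.81 (SE 0.19) without mEmBP-OE-4 replicate 1 (adjusted p = 0.000245, edgeR), while over all settings the adjusted p ran from 9.07e-05 to 0.124. The pair numbered 1 differed 1.39-fold and the other pairs 3.10-fold, 3.12-fold and 3.06-fold, each lower in mEmBP-OE-4.

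PBZ1, whose locus number is close to that of PR10a, passed the test neither with nor without the block. Its levels were 155, 56.3, 42.7 and 47.7 CPM in mEmBP-OE-4 replicates 1 to 4 and 118, 51.2, 66.8 and 63.4 CPM in WT replicates 1 to 4, so the range of WT lay inside that of mEmBP-OE-4. The highest library of all was mEmBP-OE-4 replicate 1 and the next was WT replicate 1. The log2 fold change was 0.011 (SE 0.43, adjusted p = 0.986, edgeR), with a 95% interval of the fold change from 0.520 to 1.95. With the replicate block the interval narrowed to 0.699 to 1.20, around a log2 fold change of -0.13 (SE 0.17, adjusted p = 0.549, edgeR). Leaving out 1 library moved the log2 fold change between -0.63 (without mEmBP-OE-4 replicate 1, adjusted p = 0.0846, edgeR) and 0.32 (without WT replicate 1, adjusted p = 0.59, edgeR). A fall passed only with library totals alone and the block (-0.61, adjusted p = 0.00625, edgeR), a setting in which the median of all genes was -0.49.

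The unequal change of PR10a and PBZ1 could be read within each library, where no scaling enters. PR10a counts were 6.89%, 5.62%, 7.67% and 6.57% of PBZ1 counts in mEmBP-OE-4 replicates 1 to 4 and 12.5%, 19.2%, 15.3% and 15.1% in WT replicates 1 to 4. All 4 mEmBP-OE-4 libraries, replicate 1 included, lay below all WT libraries. On average it was 6.69% ± 0.848 in mEmBP-OE-4 leaves and 15.5% ± 2.74 in WT leaves (SD, n = 4 each), a difference of -1.21 on the log2 scale (exact permutation test, two-sided, p = 0.0286, as low as 4 against 4 can give). The ratio was lower in 4 of 4 same-numbered pairs (paired exact p = 0.125, also the smallest possible). This ratio was chosen after the values had been seen, and no source used here says how the authors' counting shared reads between similar PR10 genes.

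**Figure D3:**
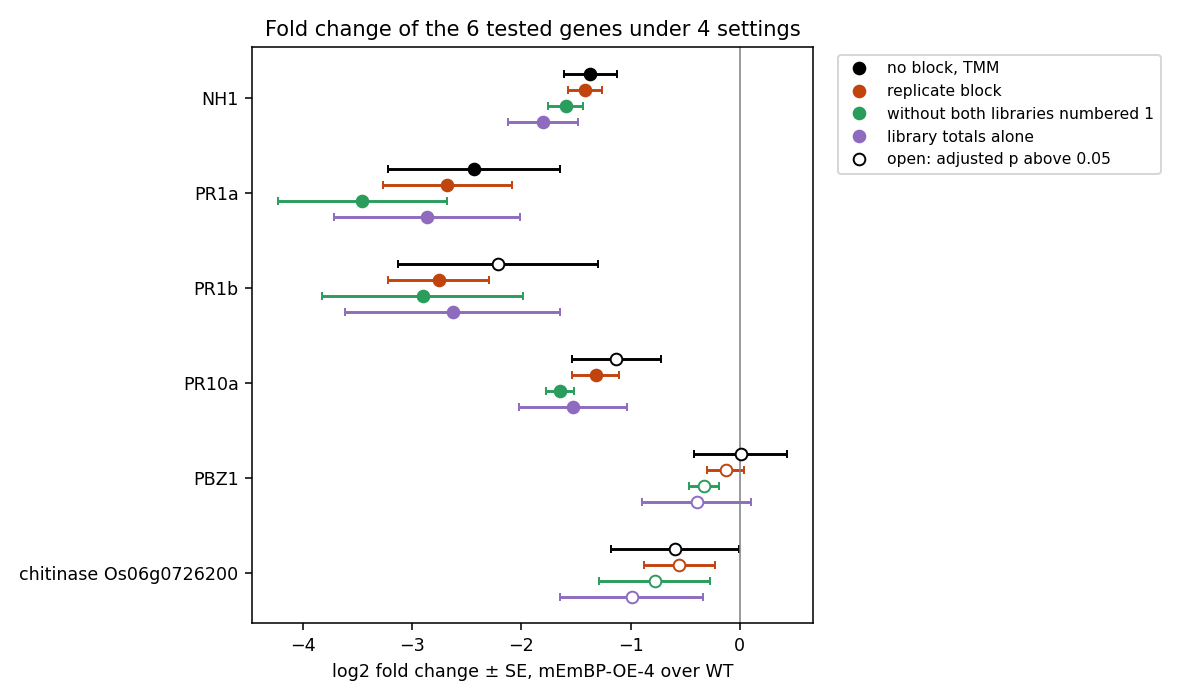
Log2 fold change ± SE of the 6 tested genes, mEmBP-OE-4 over WT, in 4 settings: without a block on TMM scaling (black), with the replicate block (red), without both libraries numbered 1 (green) and on library totals alone (purple). Open circles have an adjusted p above 0.05 (edgeR). NH1 and PR1a are filled in all 4 settings, PR1b and PR10a in 3, and PBZ1 and Os06g0726200 in none.

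Of the chitinase genes, Os06g0726200 was at 7.58, 2.33, 3.30 and 1.72 CPM in mEmBP-OE-4 replicates 1 to 4 and at 9.95, 1.37, 5.94 and 5.22 CPM in WT replicates 1 to 4. WT replicate 2 was the lowest of all 8 libraries, so the groups overlapped. The log2 fold change was -0.59 (SE 0.59, adjusted p = 0.45, edgeR), and the 95% interval of the fold change, 0.267 to 1.65, covers a large fall as well as a rise. A fall passed only with library totals alone and the block (adjusted p = 0.013, edgeR), and over the other settings no call was made. Leaving out 1 library moved the log2 fold change between -1.21 (without mEmBP-OE-4 replicate 1, adjusted p = 0.112, edgeR) and -0.16 (without WT replicate 1, adjusted p = 0.851, edgeR). Os06g0726100, whose locus number comes directly before it, did not pass the filter. It had 24, 2, 6 and 26 counts in mEmBP-OE-4 replicates 1 to 4 and 9, 0, 2 and 0 counts in WT replicates 1 to 4, which sum to 58 in mEmBP-OE-4 and 11 in WT. The groups overlapped, and in the fit without a filter its log2 fold change of 2.74 (SE 1.01) was not called (adjusted p = 0.0624, edgeR).

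The libraries numbered 1 were high for these genes in both groups. All 6 tested genes were highest in replicate 1 among the mEmBP-OE-4 libraries, and all 6 also among the WT libraries. Of all tested genes, 29.7% were highest in replicate 1 within mEmBP-OE-4 and 38.1% within WT, and of the 18 tested defence loci described further on, 12 were in each group. Relative to the mean of the other replicates, replicate 1 was 1.88-fold (NH1) to 6.33-fold (PR1a) higher in mEmBP-OE-4 and 1.23-fold (NH1) to 2.38-fold (PR1b and Os06g0726200) higher in WT, while the median gene was at 0.986 in mEmBP-OE-4 and 1.01 in WT. The same libraries had the lowest leaf marker share of their group (4.73% in mEmBP-OE-4 and 5.11% in WT), the highest TMM factor (1.01 in mEmBP-OE-4 and 1.28 in WT) and the most genes detected (25686 in mEmBP-OE-4 and 25883 in WT). The part of these measures in the levels was not tested. Without both libraries numbered 1, NH1, PR1a, PR1b and PR10a fell (adjusted p = 0.000347, 0.00915, 0.0365 and 0.000127, edgeR), where 20.5% of 20612 tested genes were called lower.

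**Figure D4:**
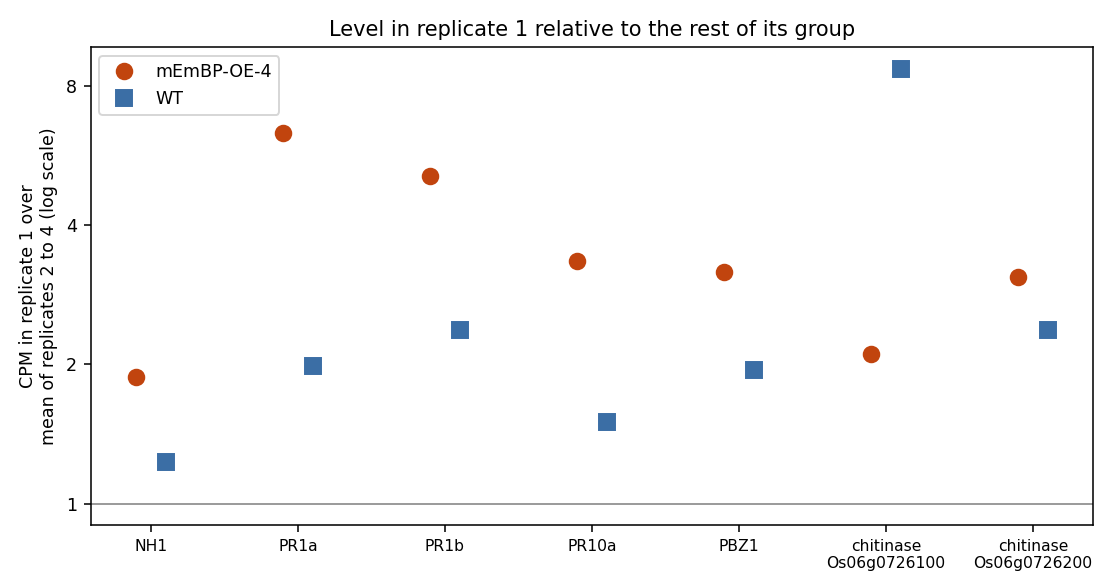
CPM in replicate 1 divided by the mean CPM of replicates 2 to 4 (log axis), for mEmBP-OE-4 (circles) and WT (squares). Every value lies above 1, and for the 6 tested genes the ratio is larger in mEmBP-OE-4 (1.88 to 6.33) than in WT (1.23 to 2.38). Os06g0726100 and, in mEmBP-OE-4, PR1a rest on few counts.

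The choice of scaling shifted the whole table. With no scaling beyond library totals, all tested genes had a median log2 fold change of -0.47, and 43.1% of them were called lower (8912 lower and 1752 higher, in place of 3954 lower and 4155 higher). NH1 was then at -1.81, PR1a at -2.87, PR1b at -2.63, PR10a at -1.53, PBZ1 at -0.40 and Os06g0726200 at -0.99, with 4 of the 6 called lower. Summed, the 7 genes took 0.00819% ± 0.00699 of the counts of mEmBP-OE-4 libraries and 0.0132% ± 0.00561 of those of WT libraries (SD, n = 4 each). With TMM-scaled library sizes the means were 0.00904% in mEmBP-OE-4 and 0.0110% in WT. On library totals, leaving out replicate 1 of the group gave means of 0.00469% in mEmBP-OE-4 and 0.0104% in WT. PBZ1 alone gave 80.7% to 84.4% of those counts in mEmBP-OE-4 and 61.9% to 70.1% in WT, so the sum mostly follows that gene.

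Among 24 further defence loci, tested genes moved in both directions. These loci were listed by recalled ID for NPR homologues, other PR families, salicylic acid regulators and WRKY45, a WRKY factor downstream of salicylic acid, and no annotation used here names them. Of the 18 that passed the filter 7 fell, 3 rose and 8 did not pass, against 19.1% of all tested genes lower and 20.1% higher. With the replicate block 8 fell and 4 rose, where 24.1% and 25.2% of all tested genes did, and the median log2 fold change without the block was -0.22. On library totals alone 9 fell and 2 rose, where 43.1% of all tested genes were called lower and 8.47% higher. Of 4 loci listed as NPR homologues 1 fell, Os03g0667100 (log2 fold change -0.78, SE 0.21, adjusted p = 0.0167, edgeR). Its call was lost without WT replicate 4 (adjusted p = 0.052, edgeR). The others had log2 fold changes of -0.057, 0.43 and 0.55. The last 2 rested on 1 library each: Os01g0837000 was at -0.019 without mEmBP-OE-4 replicate 1, and Os01g0948900 at -0.041 without mEmBP-OE-4 replicate 3. Os12g0555200, listed as PR10 and numbered between PR10a and PBZ1, fell as well (log2 fold change -1.53, SE 0.39, adjusted p = 0.0125, edgeR; -2.12 without mEmBP-OE-4 replicate 1), at 2.53, 0.867, 0.935 and 0.770 CPM in mEmBP-OE-4 replicates 1 to 4 and 4.87, 3.15, 3.17 and 3.59 CPM in WT replicates 1 to 4. The other locus listed as PR10, Os03g0300400, went the opposite way, at 11.9, 2.57, 12.2 and 3.69 CPM in mEmBP-OE-4 replicates 1 to 4 and 3.26, 0.233, 0.736 and 0.587 CPM in WT replicates 1 to 4. It rose (log2 fold change 2.62, SE 0.79, adjusted p = 0.0262, edgeR) although the groups overlapped, and the value was 3.88 without WT replicate 1. The call was lost without mEmBP-OE-4 replicate 1 or 3 or WT replicate 3 or 4 (adjusted p = 0.051 to 0.0718, edgeR) and on library totals alone (adjusted p = 0.0527, edgeR). Both PR10 loci are named after their values were seen.

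The 2 called loci of lowest p in each direction were on different lists. Os05g0322900, the locus listed as WRKY45, was at 7.02, 4.73, 4.95 and 3.05 CPM in mEmBP-OE-4 replicates 1 to 4 and at 72.2, 29.0, 75.6 and 72.1 CPM in WT replicates 1 to 4. Os01g0940700, listed as a beta-1,3-glucanase, was at 4.77, 1.83, 1.06 and 1.44 CPM in mEmBP-OE-4 and 13.8, 9.58, 10.0 and 8.69 CPM in WT (log2 fold change -2.21, SE 0.43, adjusted p = 0.00345, edgeR; -2.89 without mEmBP-OE-4 replicate 1). In the other direction, Os09g0361500 from the salicylic acid list was at 23.2, 28.6, 21.0 and 35.5 CPM in mEmBP-OE-4 and 11.3, 14.6, 12.8 and 14.5 CPM in WT (log2 fold change 1.02, SE 0.17, adjusted p = 0.00169, edgeR). The groups did not overlap for any of these 3 loci, which were picked by lowest p. Of all 20690 tested genes, 4074 were lower and 3887 higher in mEmBP-OE-4 with no overlap. Os04g0493400, listed as a chitinase, was at 9.65, 0.700, 1.33 and 0.667 CPM in mEmBP-OE-4 and 0.311, 0.0634, 0.101 and 0.152 CPM in WT (log2 fold change 4.22, SE 1.01, adjusted p = 0.00948, edgeR), with no overlap. It passed the filter through its mEmBP-OE-4 libraries, so it could be tested only because of its level there. Its log2 fold change was 2.45 without mEmBP-OE-4 replicate 1 (adjusted p = 0.00728, edgeR) and 4.83 without WT replicate 1 (adjusted p = 0.0134, edgeR). On the salicylic acid list Os11g0195500 fell (log2 fold change -0.39, adjusted p = 0.0158, edgeR) and Os09g0392100 was at -0.010 (adjusted p = 0.953, edgeR). On the glucanase list Os01g0940800 was at 0.12 (adjusted p = 0.912, edgeR), and on the chitinase list Os10g0542900 was at -0.49 (adjusted p = 0.521, edgeR). Without mEmBP-OE-4 replicate 1, Os01g0940800 was at -1.29 (adjusted p = 0.0785, edgeR) and Os10g0542900 at -1.465 (adjusted p = 0.0114, edgeR).

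**Figure D5:**
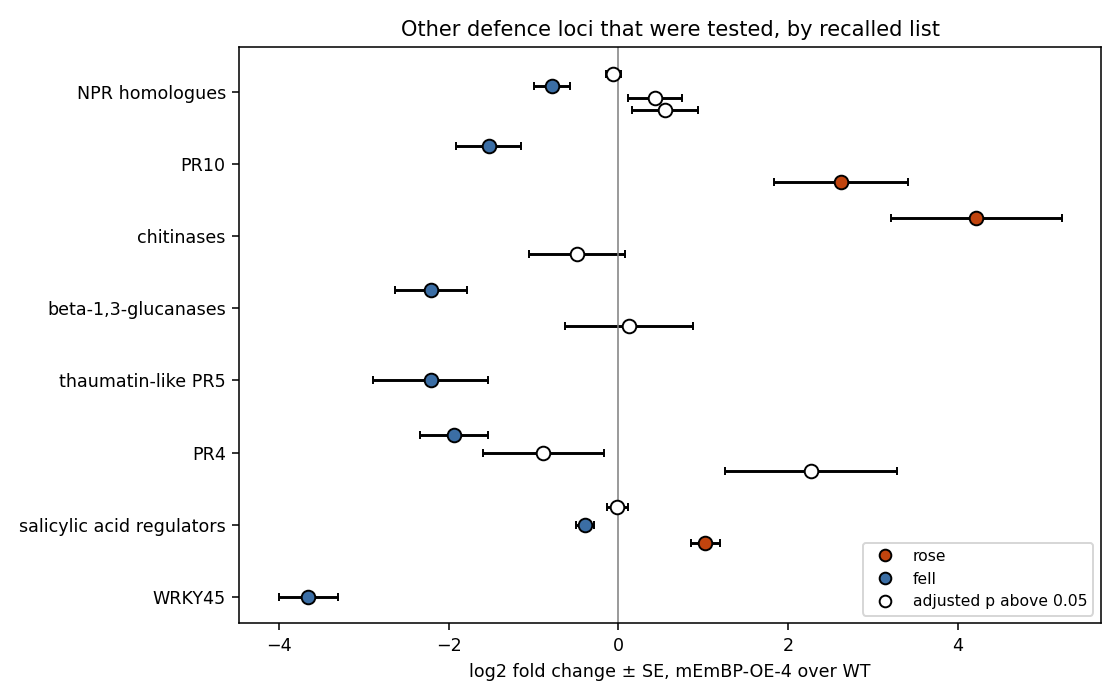
Log2 fold change ± SE, mEmBP-OE-4 over WT, of the 18 tested loci on the recalled defence lists, 1 point per locus. Filled points passed the test (7 blue fell, 3 red rose; edgeR, adjusted p at most 0.05) and open points did not.

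By pattern over the 8 libraries, the genes most like the 6 tested members were Os02g0162733 and Os02g0179950, for which no name is given here. Their log2 CPM correlated with the mean standardised log2 CPM of the 6 at r = 0.986 and 0.985, a description in which the group difference and the height of replicate 1 both enter. Os02g0162733 was at 3.92, 1.47, 1.13 and 0.923 CPM in mEmBP-OE-4 replicates 1 to 4 and 5.77, 3.55, 3.55 and 3.72 CPM in WT replicates 1 to 4. As with PR10a, replicate 1 was high in both groups. Neither Os02g0162733 nor Os02g0179950 passed the test without a block (adjusted p = 0.0608 and 0.0828, edgeR), and the groups overlapped for each. With the block the adjusted p was 0.00344 and 0.00587 (edgeR).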

How the data were processed

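The deposited table holds raw counts per gene, whole numbers made by the authors, for 8 leaf libraries grouped by title. Per the submitters' processing notes, FastQC, Trim Galore, STAR 2.5.3a, DESeq2 and IRGSP-1.0 were used. No source used here gives the counter, strand setting or annotation release, so similar, overlapping or antisense genes carry an unknown error.

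Low counts were removed by filterByExpr (minimum count 10, minimum total 15). With groups of 4 it keeps a gene that reaches the CPM of 10 counts in a median-sized library in at least 4 libraries. The rest were scaled by TMM and tested with edgeR 4.0.16 in R 4.3.3 (quasi-likelihood F test, Benjamini-Hochberg over 20690 genes, threshold 0.05). A standard error is the size of the log2 fold change over the square root of F. DESeq2 1.42.0, limma 3.58.1 (voom), other scalings and filters, the block and left-out libraries were alternatives. The test was tried on simulated counts. Members, lists and the named-gene rule (all members, up to 2 risen and 2 fallen listed loci of lowest p, the 2 genes most alike) were chosen with earlier results of these data known. Os12g0555200, Os03g0300400, the named NPR homologues, the ratio of PR10a to PBZ1 counts and the members' replicate 1 values were added after values were seen. So were Os11g0195500, Os09g0392100, Os01g0940800 and Os10g0542900. The deposited IDs matched the gene table of assembly ASM3414082v1 for 1 row, so no names or sequences came from it.

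No 2 replicates agreed within sampling noise (chi-square over degrees of freedom, 6.58 to 123). Libraries with the same number deviated together from their group means (r = 0.637, 0.352, 0.192 and 0.106 over tested genes), all above the 0.1 set for calling them paired, although the labels do not say what a number shares and mEmBP-OE-4 replicate 4 and WT replicate 2 correlated best with each other. The blocked values therefore stand beside the others.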

Additional observations from a re-analysis of the deposited data

Results flagged for a closer look

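Among 16 groups of 4 values examined with Dixon's criterion, 5 held a library that stood apart, which chance alone does in about 1 in 20 groups. In each of the 5 it was replicate 1. PR10a was at 10.7 CPM in mEmBP-OE-4 replicate 1, against 3.13 to 3.27 CPM in the rest of that group, and at 14.8 CPM in WT replicate 1, against 9.56 to 10.2 CPM. PBZ1 was at 155 CPM in mEmBP-OE-4 replicate 1, against 42.7 to 56.3 CPM. The 7 genes together took 0.0187% of counts in mEmBP-OE-4 replicate 1, against 0.00433% to 0.00504%, and 0.0216% in WT replicate 1, against 0.00971% to 0.0108%. These groups share libraries and genes, so the 5 are not independent of each other.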

How the results depend on the processing

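NH1 fell in all 19 alternatives. PR1a kept its direction in the 18 in which it was tested and lost its call in 7, all of which leave out 1 library. PR1b and PR10a also kept their direction and gained a call in 7 of 18 and 9 of 19. The number of members changed was 2, 3 with DESeq2 or with no filter, and 4 with limma-voom, with library totals alone, with the replicate block, without both libraries numbered 1 and without both plus the block. Genes called lower were 4341 of 20690 with DESeq2, 4054 of 29163 with no filter and 4067 of 20690 with limma-voom. On library totals alone 43.1% of tested genes were called lower, with the block 24.1%, and without both libraries numbered 1 20.5%. Without both plus the block, 4053 of 20612 genes were called lower. The number of members changed was 6 with library totals alone and the block, where 13109 genes of the table were called, 10720 of 20690 lower. With a filter of 5 CPM in 4 libraries it was 1, with 4 members tested and 2618 of 12157 genes called lower. That filter left 5220 genes called in place of 8109, and 6 of the related loci called in place of 10. Leaving out 1 library gave 4 members without mEmBP-OE-4 replicate 1 and 1 member, NH1, without any other library. Over these fits 6399 to 8450 genes of the table were called, with 14.9% to 20.5% of tested genes lower. On TMM scaling the block changed no call of NH1, PR1a, PBZ1 or Os06g0726200. PBZ1, at 0.011 on the log2 scale, changed sign with limma-voom (-0.12), library totals alone (-0.40), upper-quartile factors (-0.017), the 5 CPM filter (-0.010), no filter (-0.016), the replicate block (-0.13), library totals with the block (-0.61), and without both libraries numbered 1 (-0.33, and -0.33 with the block), and ranged from -0.63 to 0.32 when 1 library was left out; the cause was not tested. The block without both libraries numbered 1 was chosen after the data were seen. Depth limits PR1a, PR1b in mEmBP-OE-4 and Os06g0726100, which had single-digit counts in some libraries.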
